A study of Mus musculus with 10 samples.

Results

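The genes described are 4 reticulons (Rtn1, Rtn2, Rtn3 and Rtn4) and 3 Nogo receptor genes (Rtn4r, Rtn4rl1 and Rtn4rl2). They were taken by symbol, 7 of the 55487 genes measured, with all of their exon bins and introns. The tissue was mouse cerebral cortex taken at 18 days, from 5 Usp7 cKO and 5 Usp7 WT animals. In Usp7 cKO a floxed Usp7 was deleted by NEX-cre, a Cre line active in forebrain glutamatergic neurons, so other cells of the cortex kept the gene. Animals of both groups were Trp53+/-, and the labels do not say whether the Usp7 WT animals carried NEX-cre. The set was selected on the intron use of Rtn4, which differed between these genotypes, so every Rtn4 difference below is a description without a test. The other 6 genes were tested.

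Reticulons are membrane proteins of the endoplasmic reticulum, whose hairpin-forming C-terminal reticulon homology domain bends the membrane into tubules. Rtn4 encodes the Nogo proteins: Nogo-A, known as a myelin and neuronal inhibitor of axon growth, carries a long stretch that Nogo-B and Nogo-C lack, and Nogo-C starts from a promoter of its own inside the gene. Rtn4r encodes the Nogo-66 receptor NgR1, a GPI-anchored leucine-rich repeat protein that signals through partners such as LINGO-1, and Rtn4rl1 and Rtn4rl2 encode its relatives NgR3 and NgR2.

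The libraries held 42628526 to 51797145 counts over exon bins and 3388310 to 4367711 counts of spliced reads. Usp7 was 48.3 to 61.9 TPM (a level scaled for transcript length and library size) in the Usp7 WT libraries and 31.6 to 40.9 TPM in the Usp7 cKO libraries, so it went with the labels in all 10. The labelled sex went against the Xist and Ddx3y levels in 2 libraries, Usp7 WT replicate 2 (labelled female) and Usp7 cKO replicate 1 (labelled male). Xist was high, at 96.5 to 130.2 TPM, in Usp7 WT replicates 1 and 5 and in Usp7 cKO replicates 1, 2, 3 and 5. Sex by expression was thus uneven between the genotypes, and the covariate of the main tests was the labelled sex. Calls of the 7 genes that were lost without both libraries of discordant sex are given with and without them. Calls of genes in the other lists are given with all 10 libraries only.

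The forms of a reticulon differ in what is spliced onto a shared block of exons. In Rtn1, Rtn2, Rtn3 and Rtn4 alike the block opens with coding exons of 208, 139, 70, 47 and 59 bases. The first of these was 70.7% identical between Rtn1 and Rtn4, 70.2% between Rtn3 and Rtn4 and 51.4% between Rtn2 and Rtn4. The joins of Rtn4 show which bases tell the Nogo forms apart in spliced reads. Each line gives the last 30 coding bases of the upstream exon in lower case and the first 20 bases of the shared exon (chr11:29733633-29733652, GRCm38, plus strand) in capitals, from GENCODE M21 transcripts.
Nogo-A, long exon ending at 29708770: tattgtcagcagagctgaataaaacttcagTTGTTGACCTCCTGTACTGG
Nogo-B with the 57-base exon ending at 29705591: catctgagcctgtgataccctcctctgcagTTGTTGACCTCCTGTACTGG
Nogo-B, first exon ending at 29693693: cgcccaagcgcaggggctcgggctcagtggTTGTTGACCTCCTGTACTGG
Nogo-C, first exon ending at 29718882: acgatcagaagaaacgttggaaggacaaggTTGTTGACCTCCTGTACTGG
The Nogo-C first exon holds 34 coding bases, so its protein adds little to the shared domain, whereas the Nogo-A long exon holds 2361.

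Rtn1 and Rtn3 are built the same way, and their long forms were measured beside Nogo-A. The next lines give the same 30 and 20 bases for Rtn1 (chr12, minus strand) and Rtn3 (chr19, minus strand).
Rtn1-A, the long form: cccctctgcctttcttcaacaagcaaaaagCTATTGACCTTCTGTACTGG
Rtn1-C, the short form: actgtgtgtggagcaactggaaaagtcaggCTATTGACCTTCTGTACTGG
Rtn3 with the long exon of 2124 bases: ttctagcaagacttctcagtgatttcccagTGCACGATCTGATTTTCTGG
Rtn3 with a 57-base exon: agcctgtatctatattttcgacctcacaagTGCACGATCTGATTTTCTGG
Rtn3 from the first exon: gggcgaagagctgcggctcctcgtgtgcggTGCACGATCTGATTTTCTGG
The 20 shared bases matched at 17 positions between Rtn1 and Rtn4 and at 11 between Rtn3 and Rtn4.

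Rtn4 and Rtn3 both carry an exon of 57 bases before the long exon. The sequences are aligned from their first base without gaps, and capitals mark the 25 of 57 bases (43.9%) that match.
Rtn4, chr11:29705535-29705591, plus strand: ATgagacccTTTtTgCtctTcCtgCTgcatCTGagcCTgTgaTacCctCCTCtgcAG
Rtn3, chr19:7467811-7467867, minus strand: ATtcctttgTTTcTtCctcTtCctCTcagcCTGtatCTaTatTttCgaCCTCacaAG
Both exons are whole codons in length.

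At the level of whole genes the reticulons were the more abundant group and most of them were lower in Usp7 cKO. In Usp7 WT the order of mean levels was Rtn1, Rtn3, Rtn4, Rtn4r, Rtn4rl2, Rtn4rl1 and Rtn2. The library ranges of Rtn1 and Rtn3 overlapped, as did those of Rtn4 and Rtn4r and of Rtn4r and Rtn4rl2, and the other neighbours in the order did not. In Usp7 cKO, Rtn4 ranked below Rtn4rl2 and Rtn4r with overlapping ranges, and Rtn2 ranked above Rtn4rl1, also with overlap. The 4 reticulons together summed to 1440 to 1624 TPM in Usp7 WT and to 1304 to 1372 TPM in Usp7 cKO, without overlap. The 3 receptor genes summed to 439.6 to 480.3 and to 362.8 to 497.7 TPM, with overlap.

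**Figure D1:**
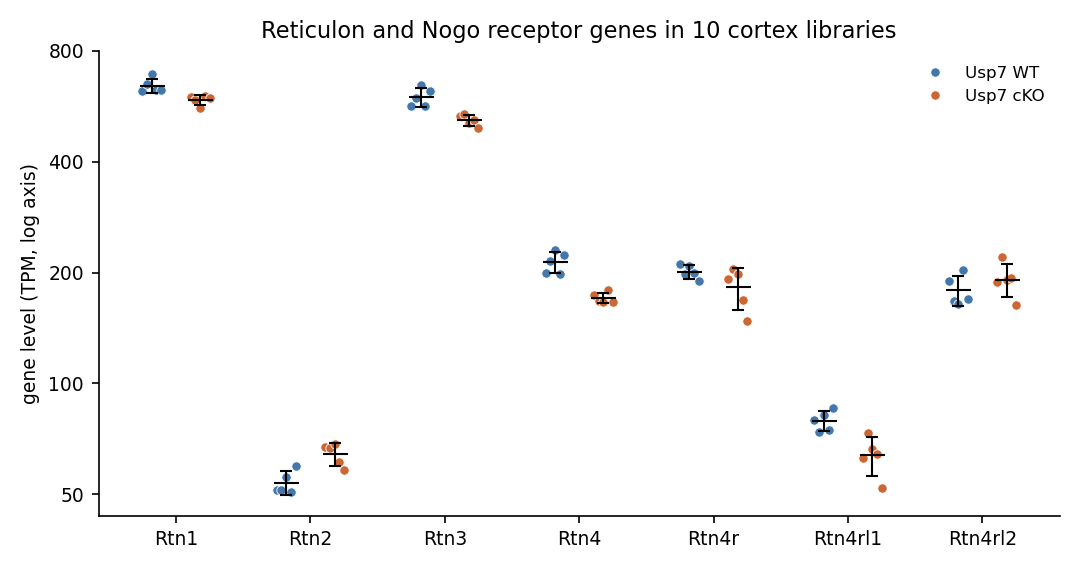
Gene level in TPM (log axis) of the 7 genes in each of 10 cortex libraries; points are libraries, bars the mean and SD of 5. The Usp7 cKO points of Rtn1, Rtn3, Rtn4 and Rtn4rl1 all lie below the Usp7 WT points, and the groups of Rtn2, Rtn4r and Rtn4rl2 overlap.

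All 7 genes passed the minimum of a mean of 0.5 TPM. Of the 6 tested, 3 fell (Rtn1, Rtn3 and Rtn4rl1) and 1 rose (Rtn2) by limma at an adjusted p threshold of 0.05. Over all genes tested, 4.67% were called lower and 9.22% higher, 13.9% in all. The median log2 change of the 6 was -0.14, against 0.06 over all genes. Groups did not overlap, with Usp7 cKO lower, for the 3 that fell and for Rtn4, and this held for 4.58% of all genes (8.19% were higher without overlap). None of the 4 calls was made without both libraries of discordant sex, where limma compared 4 with 4 libraries. The split of calls over all genes moved with scaling, from 66.4% higher on TPM as deposited to 48.2% higher on rescaled TPM. Rtn1, Rtn3 and Rtn4rl1 were lower and Rtn2 higher under each scaling run.

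Rtn4 (ENSMUSG00000020458, chr11:29692947-29744331, plus strand) was lower in every Usp7 cKO library. It measured 199.7, 214, 230.2, 198 and 224 TPM in Usp7 WT replicates 1 to 5. In Usp7 cKO replicates 1 to 5 it measured 174, 168, 166, 179 and 167 TPM. The groups did not overlap, and the spread within Usp7 cKO was the smaller. The means were 213 ± 14.2 and 171 ± 5.54 TPM (SD, n = 5), a log2 difference of -0.32 (SE 0.0498).

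Within Rtn4 the difference was uneven: the exons of Nogo-A and Nogo-B before the Nogo-C promoter were at like levels in both groups, and the Nogo-C first exon and most exon bins after it were lower in Usp7 cKO. Levels of exon parts are given in CPM, counts scaled to the library's total of bin counts, where a read that spans several bins can count in each. The first exon of Nogo-A and Nogo-B (4 bins, chr11:29692947-29693693) measured 71.1, 63.1, 63.9, 74.6 and 69.7 CPM in Usp7 WT. In Usp7 cKO it measured 60.6, 70.1, 69.5, 68.3 and 67.9 CPM. The groups overlapped, and the log2 ratio of means was -0.03 (SE 0.0598). The 57-base exon measured 7.01, 6.57, 6.18, 9.59 and 9.03 CPM in Usp7 WT and 5.18, 7.38, 7.14, 8.30 and 7.16 CPM in Usp7 cKO, again with overlap (log2 -0.13, SE 0.17).

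The long exon of Nogo-A (chr11:29706410-29708770) encodes the inhibitory stretch particular to that form. It measured 77.9, 84.8, 88.0, 94.95 and 88.6 CPM in Usp7 WT and 84.0, 83.1, 73.45, 95.6 and 82.2 CPM in Usp7 cKO. The groups overlapped throughout (log2 -0.05, SE 0.0763). An alternative first exon of the gene (chr11:29693774-29693962) was low in both groups, at 0.429 and 0.381 CPM.

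The Nogo-C first exon (chr11:29718563-29718882, 320 bases with its untranslated part) was the lowest of the Rtn4 regions relative to Usp7 WT. It measured 17.4, 19.5, 18.1, 14.3 and 15.5 CPM in Usp7 WT, from 709 to 989 reads. In Usp7 cKO it measured 9.01, 6.70, 6.12, 8.17 and 6.80 CPM, from 280 to 423 reads. Every Usp7 cKO library lay below every Usp7 WT library. The means were 17.0 ± 2.07 and 7.36 ± 1.19 CPM (SD, n = 5), a log2 ratio of -1.21 (SE 0.13). Its share of all Rtn4 bin counts was 3.83 ± 0.315% and 2.14 ± 0.271%.

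The shared coding exons, which encode the reticulon homology domain in every Nogo form (10 bins, 648 bases), were lower by a smaller ratio. They measured 174, 211, 208.3, 164.5 and 164.5 CPM in Usp7 WT and 131, 117, 113, 134 and 123 CPM in Usp7 cKO. The groups did not overlap (log2 -0.58, SE 0.0933). As a share of Rtn4 bin counts the Nogo-A long exon was 19.7 ± 1.93% in Usp7 WT and 24.4 ± 1.02% in Usp7 cKO, without overlap, while its level in CPM overlapped.

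**Figure D2:**
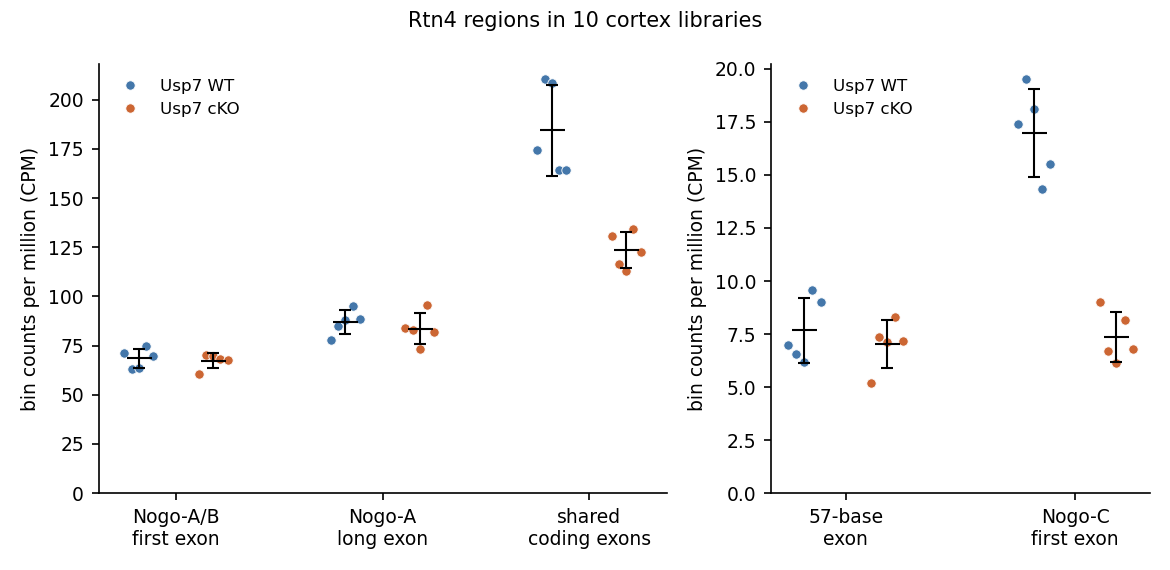
Bin counts in CPM, scaled to the library total, of 5 Rtn4 regions in 10 libraries; points are libraries, bars the mean and SD of 5. The Nogo-A/B first exon, the Nogo-A long exon and the 57-base exon overlap between groups, and the Nogo-C first exon and the shared coding exons are lower in all 5 Usp7 cKO libraries.

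Bin by bin, the step lay at the Nogo-C first exon. The 7 bins before it had log2 ratios of CPM between -0.17 and 0.03, each with overlapping groups. The 15 bins after it, bins 9 to 23, had log2 ratios between -0.67 and -0.45, and in 14 of them the groups did not overlap (2.98% of all bins with counts in every library were lower without overlap, a share from which nothing is read here, since Rtn4 was selected). The exception was bin 16, 449 bases beside a shared exon that only non-coding transcripts hold, at 1.16 and 0.848 CPM. The last bin, 24, overlaps the antisense gene Eml6, held 17 and 18 reads in all and gave no ratio. In the authors' deposited table, whose log2 changes are relative to the rest of the gene, the first 7 bins ran from 0.36 to 0.55, the Nogo-C first exon was -0.68 and bins 9 to 23 ran from -0.14 to 0.07.

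**Figure D3:**
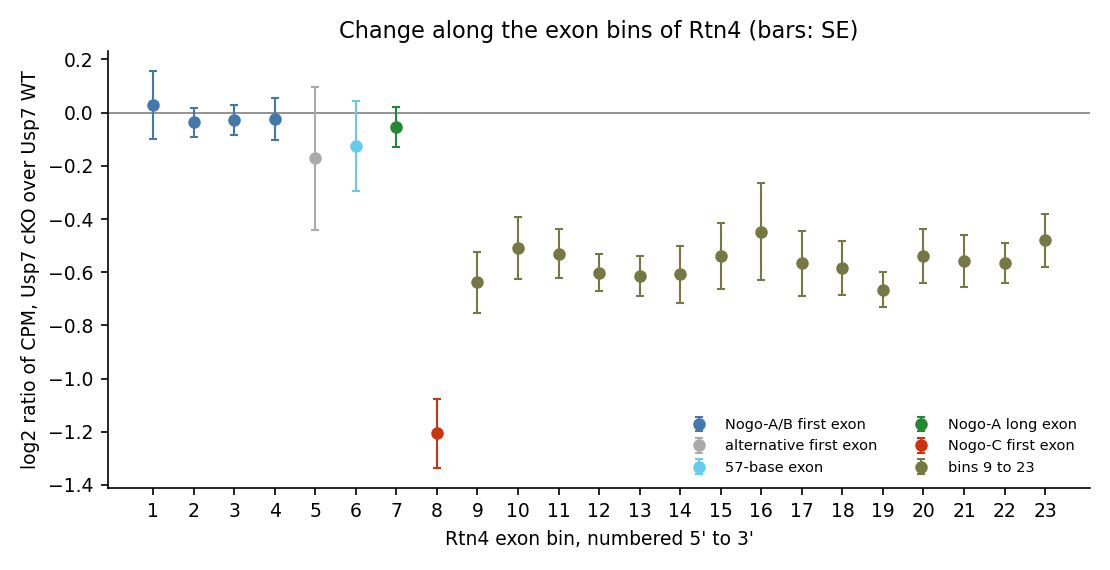
Log2 ratio of CPM, Usp7 cKO over Usp7 WT, for Rtn4 exon bins 1 to 23 in 5' to 3' order, with SE bars. Bins 1 to 7 lie between -0.17 and 0.03, bin 8 (Nogo-C first exon) at -1.21 and bins 9 to 23 between -0.67 and -0.45.

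Spliced reads showed the same forms by the joins printed above. They come from the same libraries as the bins and are not a separate measurement. Between 434 and 1025 reads per library joined an upstream exon to the shared exon at 29733633. Nogo-C took 78.5, 79.5, 74.7, 72.2 and 73.4% of them in Usp7 WT and 63.6, 50.1, 51.8, 52.9 and 43.2% in Usp7 cKO. The groups did not overlap, and means were 75.7 ± 3.18% and 52.3 ± 7.34% (SD, n = 5). Nogo-C was thus the most frequent join in each of the 10 libraries but for the library labelled Usp7 cKO replicate 5, where Nogo-A took 45.1%.

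Nogo-A took 18.1, 17.5, 22.3, 21.3 and 20.1% of the joining reads in Usp7 WT and 32.95, 39.9, 35.3, 37.7 and 45.1% in Usp7 cKO, also without overlap. Nogo-B took 3.70 ± 1.58% and 7.70 ± 2.51%, with overlap, and Nogo-B with the 57-base exon rested on 35 reads in all of Usp7 WT and 45 in all of Usp7 cKO. Shares must sum to the whole, so levels were set beside them. Scaled to the library total of spliced reads in the same way, the Nogo-C join measured 162 ± 24.5 CPM in Usp7 WT and 67.6 ± 10.9 CPM in Usp7 cKO (log2 -1.27, SE 0.145). The Nogo-A join measured 42.3 ± 5.89 and 49.4 ± 7.67 CPM (log2 0.22, SE 0.133), with overlapping groups. The introns upstream of it held fewer reads in Usp7 cKO, before scaling to depth. From the 57-base exon to the long exon there were 1375 reads in all of Usp7 WT and 1095 in all of Usp7 cKO. From the first exon to the 57-base exon there were 2193 and 1939. The shares of both among the reads of the 6 Rtn4 introns counted overlapped between groups. In the authors' deposited table the Nogo-C intron had the largest difference in cluster share among the 6 Rtn4 introns, 0.18. The header does not state its direction, but its sign matches the Nogo-C share in Usp7 WT minus that in Usp7 cKO.

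**Figure D4:**
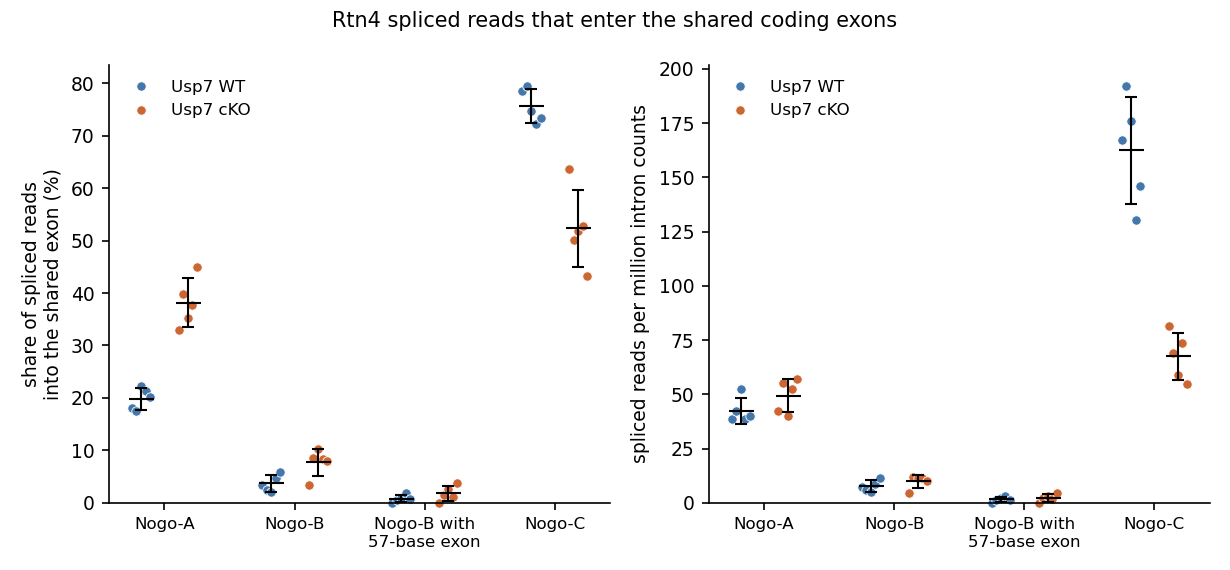
Spliced reads that enter the shared exons of Rtn4, by form, in 10 libraries: share of such reads in percent (left) and CPM of the spliced reads of the library (right); bars are the mean and SD of 5. The Nogo-C join is lower in all 5 Usp7 cKO libraries in both panels, and the Nogo-A join is higher in share and overlaps on the right.

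Without both libraries of discordant sex the log2 ratio of the Nogo-C share was -0.89 over bins and -0.59 over joins, against -0.84 and -0.53 with all libraries. Markers of glutamatergic neurons moved with these values: their summed level ran from 7793 to 9102 TPM in Usp7 WT and from 4531 to 5599 TPM in Usp7 cKO, and 10 of 12 fell. The median log2 change of the 12 was -0.40, and the sum leans on Nrgn, which fell from 4640 to 2391 TPM. One of the 12, Neurod6, is also known as NEX and gives the Cre line its name. Neurod6 had the lowest log2 change of the 12, from 52.1 to 24.15 TPM (log2 -1.10), and the part of the Cre line in it was not tested. The part of glutamatergic neurons in the Rtn4 differences was not tested either. In bulk tissue fewer cells of a type and less RNA per cell cannot be told apart. Summed oligodendrocyte markers, the cells best known for Nogo-A, overlapped between groups at 2983 to 4154 and 3256 to 4137 TPM.

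The 2 main promoters of Rtn4 differ in base composition, and are shown because the regions they start differed in their change. The sequences are the 250 bases before each start in RefSeq (GRCm38.p6), and capitals mark motif matches on either strand. The search covered the GC box, spelled GGGCGG, and the box named for its letters CCAAT. It also covered the TATA box, spelled TATAAA, an E-box spelled CAGATG and the MEF2 site consensus. Matches were allowed to overlap.
Nogo-A/B promoter, chr11:29692648-29692897: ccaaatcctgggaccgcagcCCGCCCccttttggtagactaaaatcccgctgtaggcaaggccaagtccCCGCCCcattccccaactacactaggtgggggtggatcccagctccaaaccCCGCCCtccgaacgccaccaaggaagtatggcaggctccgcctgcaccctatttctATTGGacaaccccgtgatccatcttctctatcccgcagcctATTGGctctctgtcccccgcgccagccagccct
Nogo-C promoter, chr11:29718313-29718562: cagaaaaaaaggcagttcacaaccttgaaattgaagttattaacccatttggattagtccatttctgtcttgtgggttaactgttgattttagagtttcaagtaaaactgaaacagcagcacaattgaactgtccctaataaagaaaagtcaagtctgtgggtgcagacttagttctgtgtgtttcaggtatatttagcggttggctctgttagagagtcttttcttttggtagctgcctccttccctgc
The Nogo-A/B promoter was 61.2% G and C with 12 CpG dinucleotides, and held 3 GC boxes and 2 CCAAT boxes. The Nogo-C promoter was 39.2% G and C with 1 CpG and held none of the motifs as spelled, and 11% of the 32841 promoter entries of the table had as low a G and C content. A GC box was in 32.7% of those entries, a CCAAT box in 33.9%, a TATA box in 12.4%, this E-box in 14.4% and this MEF2 pattern in 3.20%. Of the 7 genes 6 had a promoter entry; a match is a description of letters only.

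Rtn3 (ENSMUSG00000024758, chr19:7425901-7483281, minus strand), which is best known as a binding partner and inhibitor of the protease BACE1, fell in level and its long form fell further. It measured 567, 594.5, 647, 565 and 623 TPM in Usp7 WT and 531, 539.5, 509.6, 518 and 494 TPM in Usp7 cKO. No Usp7 cKO library reached a Usp7 WT library. The log2 change was -0.21 (SE 0.0466, limma adjusted p = 0.015). With both libraries of discordant sex left out it did not pass (log2 -0.22, limma adjusted p = 0.0724), and it passed when any single library was left out.

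The long exon of Rtn3, counterpart of the Nogo-A exon in position, measured 74.0, 76.9, 79.2, 80.02 and 79.9 CPM in Usp7 WT. In Usp7 cKO it measured 54.7, 62.8, 52.45, 62.7 and 54.7 CPM. The groups were well apart, at 78.0 ± 2.58 and 57.5 ± 4.91 CPM (SD, n = 5; log2 -0.44, SE 0.0587). Its share of Rtn3 bin counts fell from 11.3 ± 0.464 to 9.30 ± 0.417% (exact permutation p = 0.00794, two-sided and the smallest possible, 0.0381 adjusted over the 12 isoform comparisons of Rtn1 and Rtn3). The 57-base exon of Rtn3 moved with it, from 18.0 ± 1.42 to 12.6 ± 1.05 CPM and from 2.61 ± 0.273 to 2.05 ± 0.126% of the bin counts (exact permutation p = 0.00794, adjusted 0.0381). Both shares kept their direction and an exact p under 0.05 in each alternative run.

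Among spliced reads into the shared exon of Rtn3, 1248 to 2193 per library, the long exon fell from 6.03 ± 0.884 to 4.03 ± 0.927% (SD, n = 5; exact permutation p = 0.0238, adjusted 0.0476), with overlapping groups. The join of the 57-base exon straight to the shared exon was 5.18 ± 0.949 and 5.09 ± 0.68% (exact permutation p = 0.881). That of the first exon was 88.8 ± 1.504 and 90.9 ± 1.46% (exact permutation p = 0.0397, adjusted 0.0595). Without both libraries of discordant sex the long exon's exact permutation p was 0.0857 at a log2 ratio of -0.57. The Rtn3 introns counted formed 1 cluster of 7, without the introns between the shared exons. Among the spliced reads of this cluster, the first exon to the 57-base exon took 30.7% in Usp7 WT and 25.98% in Usp7 cKO. The 57-base exon to the long exon took 9.162 and 7.801%, and the first exon to the shared exon 53 and 59.81%. Groups did not overlap for these introns and overlapped for the other Rtn3 introns. Shares of the cluster sum to the whole, so a fall in some goes with a rise in others. How often groups did not overlap among all introns is not given here, so nothing is read from it. The shares were not tested by permutation, and edgeR did not call the cluster.

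Exon use, the change of a bin relative to its gene, was called for 2.85% of all genes by edgeR. Among the 6 members tested it was called for Rtn3 (Simes adjusted p = 0.0161) and Rtn2 (0.000414). In Rtn3 the 57-base bin was used less (relative log2 -0.35, adjusted p = 0.00943, against 0.430% of all bins called). The 2 bins of the long exon had relative log2 values of -0.27 and -0.28 at adjusted p = 0.0991 and 0.0648. The Rtn3 call was lost without Usp7 WT replicate 1 (edgeR Simes adjusted p = 0.124), Usp7 WT replicate 4 (0.199), Usp7 cKO replicate 1 (0.0748) or Usp7 cKO replicate 5 (0.185), within a range of 0.0056 to 0.199 over its alternatives.

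Rtn1 (ENSMUSG00000021087, chr12:72211752-72409054, minus strand), a neuronal and neuroendocrine reticulon and the most abundant of the family here, fell slightly. It measured 622, 649, 691, 628 and 624 TPM in Usp7 WT and 599.9, 588, 559.9, 602 and 594 TPM in Usp7 cKO. The groups did not overlap. The log2 change was -0.13 (SE 0.0362, limma adjusted p = 0.0437). The call was kept without Usp7 WT replicate 4 and was lost without any other single library (log2 -0.14 to -0.10), with rescaled TPM, with Xist as covariate and without both libraries of discordant sex (adjusted p = 0.197), within 0.00953 to 0.197.

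Its long form, Rtn1-A, took a larger share in Usp7 cKO, the opposite direction to the long form of Rtn3. The Rtn1-A exons took 12.7, 13.9, 13.7, 15.05 and 15.1% of Rtn1 bin counts in Usp7 WT and 16.7, 16.3, 15.07, 16.3 and 16.9% in Usp7 cKO. The lowest Usp7 cKO library lay within the Usp7 WT range and the other 4 above it (exact permutation p = 0.0159, adjusted 0.0381). In CPM the Rtn1-A exons overlapped at 138 ± 10.4 and 147 ± 13.8 (SD, n = 5), and the Rtn1-C first exon at 177 ± 18.5 and 153 ± 8.60.

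The joins of Rtn1 gave like shares. Rtn1-A rose from 10.8 ± 1.82 to 13.2 ± 0.944% of 4976 to 7515 joining reads, and Rtn1-C fell from 88.8 ± 1.94 to 86.3 ± 0.973% (SD, n = 5; exact permutation p = 0.0159 and adjusted 0.0381 for each). The lowest Rtn1-A share of Usp7 WT, 7.79%, was that of replicate 1, the library whose intron counts were halved, and without it the log2 ratio of the Rtn1-A join share was 0.19 rather than 0.29. Without both libraries of discordant sex each of these 3 comparisons gave an exact permutation p of 0.0571 in the same direction. Exon use of Rtn1 was not called by edgeR (Simes adjusted p = 0.413). The difference between the long forms of Rtn1 and Rtn3 was not itself tested.

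**Figure D5:**
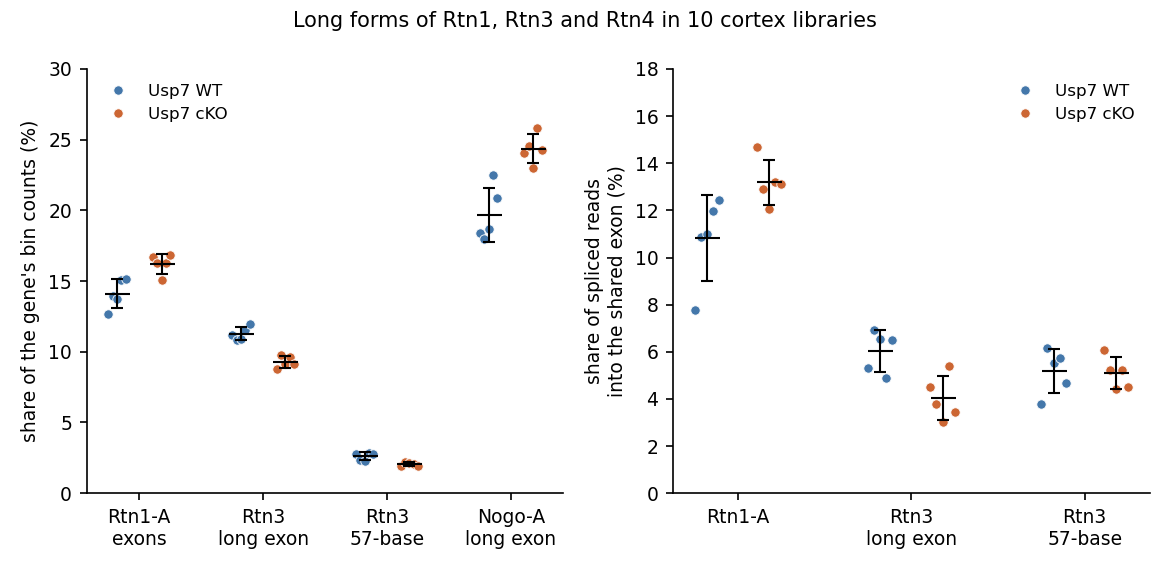
Shares of the long forms in 10 libraries: percent of the gene's bin counts (left) and percent of spliced reads into the shared exon (right); bars are the mean and SD of 5. Rtn1-A and the Nogo-A long exon sit higher in Usp7 cKO, and the Rtn3 long exon sits lower.

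Rtn2 (ENSMUSG00000030401, chr7:19282624-19296160, plus strand), the least abundant reticulon and a gene of hereditary spastic paraplegia, rose. It measured 51.5, 51.3, 55.9, 50.7 and 59.8 TPM in Usp7 WT and 67.0, 66.9, 68.4, 61.1 and 58.1 TPM in Usp7 cKO. Only Usp7 cKO replicate 5 lay within the Usp7 WT range. The log2 change was 0.26 (SE 0.0666, limma adjusted p = 0.0299). The call was lost without Usp7 WT replicates 1, 2 or 4 or Usp7 cKO replicates 1, 2 or 3 (log2 0.23 to 0.24, adjusted p = 0.0677 to 0.0771), with Xist as covariate (0.0681) and without both libraries of discordant sex (0.163), within 0.00102 to 0.163.

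Of 12 Rtn2 bins with reads in every library, 8 were higher in Usp7 cKO without overlap, as were 5.82% of all such bins. The called bin of exon use (bin 6, chr7:19287511-19289997) is intronic in the coding transcripts and belongs to a non-coding transcript that retains it. It measured 0.605, 0.454, 0.483, 0.533 and 0.656 CPM in Usp7 WT and 0.868, 1.21, 2.03, 0.869 and 1.54 CPM in Usp7 cKO. The groups did not overlap, but the counts were low, 133 reads in all of Usp7 WT and 304 in all of Usp7 cKO (relative log2 0.93, edgeR adjusted p = 0.000314). For the same bin the log2 change in the authors' deposited table is 0.95. The gene's call was lost with Xist as covariate (Simes adjusted p = 0.151) and at a minimum mean count of 50, where the bin was not tested, within 0.00015 to 1 over its alternatives.

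No intron cluster of Rtn1, Rtn2, Rtn3 or Rtn4rl2 was called by edgeR, 0 of 5 clusters, of which 0 had an unadjusted Simes p under 0.05. The lowest was 0.0825, while 0.220% of all clusters and 0.117% of all introns were called. On simulated counts this test missed most of the smaller changes tried, so a count of 0 says little about changes of that size.

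Of the receptor genes, Rtn4rl1 fell and the other two did not pass the test. Rtn4rl1 (ENSMUSG00000045287, chr11:75193783-75267769, plus strand; NgR3) measured 79.5, 73.9, 82.2, 74.96 and 85.9 TPM in Usp7 WT. In Usp7 cKO it measured 62.9, 73.3, 66.4, 64.4 and 52.1 TPM. The groups did not overlap, although Usp7 cKO replicate 2 came close to the lowest Usp7 WT library. The log2 change was -0.32 (SE 0.0861, limma adjusted p = 0.035). The call was lost without Usp7 WT replicates 1, 3 or 5 or Usp7 cKO replicates 1, 3 or 4 (log2 -0.33 to -0.29, adjusted p = 0.0523 to 0.0770), without a filter on low TPM (0.0591) and without both libraries of discordant sex (0.0903), within 0.000188 to 0.0903.

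Rtn4r (ENSMUSG00000043811, chr16:18127642-18152408, plus strand; NgR1), the receptor for the Nogo-66 loop, measured 211, 198, 207.8, 199.9 and 189 TPM in Usp7 WT and 192, 204.2, 199, 169 and 147 TPM in Usp7 cKO. Usp7 cKO replicates 4 and 5 lay below every Usp7 WT library and the other 3 within their range (log2 -0.15, SE 0.0868, limma adjusted p = 0.29). Without Usp7 cKO replicate 5 the log2 change was -0.07. Rtn4rl2 (ENSMUSG00000050896, chr2:84871924-84886710, minus strand; NgR2), a receptor for myelin-associated glycoprotein, measured 189.9, 168, 165, 203.7 and 169.5 TPM in Usp7 WT and 189, 220.2, 191, 194 and 163 TPM in Usp7 cKO. Those groups overlapped across nearly their whole range (log2 0.09, SE 0.0849, limma adjusted p = 0.52), and the log2 change was 0.03 without Usp7 cKO replicate 2, 0.15 without Usp7 cKO replicate 5 and 0.04 on rescaled TPM. Exon use was not called for any of the 3 receptor genes (edgeR Simes adjusted p = 1).

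Genes that work beside these proteins moved in both directions. Of 20 tested genes for Nogo receptor partners and other myelin inhibitors, 2 fell and 2 rose, with a median log2 change of 0.07. Lingo1, the co-receptor LINGO-1, fell from 549.5 ± 22.4 to 456 ± 49.0 TPM (SD, n = 5; log2 -0.28, limma adjusted p = 0.0279). Plxna2, a plexin, fell from 90.1 to 75.3 TPM (log2 -0.26). Ngfr, the p75 neurotrophin receptor that partners NgR1, rose from 1.20 ± 0.124 to 3.40 ± 0.583 TPM (log2 1.19, limma adjusted p = 0.000377), still far below Rtn4r. Sdc3, the proteoglycan syndecan-3, rose from 168 to 199.1 TPM (log2 0.24).

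Of 22 RhoA and growth cone effectors, 3 fell and 3 rose (median log2 -0.06). Kalrn, which encodes kalirin, fell from 207.7 to 167 TPM (log2 -0.32), and the kinase Prkca from 75.4 to 62.8 TPM (log2 -0.27). The kinase Limk2 rose from 58.6 to 73.7 TPM (log2 0.33) and Dpysl4, of the collapsin response mediator family, from 62.1 to 77.9 TPM (log2 0.32).

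Of 29 genes that shape or turn over the endoplasmic reticulum, 2 fell and 3 rose (median log2 -0.03). Ckap4, a protein of reticulum sheets, rose from 33.4 to 46.2 TPM (log2 0.46, limma adjusted p = 0.002), Retreg1, a receptor for reticulum autophagy with a reticulon-like domain, from 28.8 to 37.0 TPM (log2 0.36) and Reep6 from 10.2 to 16.8 TPM (log2 0.70). Lnpk, lunapark, which stabilises tubule junctions, fell from 15.1 to 12.0 TPM (log2 -0.32). Of 15 reticulon binding partners, 2 fell and 1 rose (median log2 -0.07). The vesicle fusion proteins Stx1a and Snap25 fell, from 600.1 to 485 TPM (log2 -0.31) and from 584 to 481 TPM (log2 -0.27), and Cntnap1, which binds Nogo-A at the paranode, rose from 201.1 to 229 TPM (log2 0.19). These shares lie beside the 13.9% of all genes called.

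Some markers of other cell types were called too, where 4.67% of all genes were called lower and 9.22% higher. Beside the glutamatergic list, 8 of 9 microglia markers fell (summed 336 to 379 TPM in Usp7 WT and 227 to 262 TPM in Usp7 cKO) and 2 of 8 GABAergic markers fell (1221 to 1391 and 1080 to 1217 TPM). The GABAergic calls were Pvalb and Npy, and the sum leans on Sst (601 to 530 TPM, not called) and Npy (332 to 264.5 TPM). Gad1, Gad2 and Slc32a1 were not called (log2 -0.04, 0.08 and 0.09). Astrocyte markers rose in 3 of 8 (730.4 to 861.5 and 849 to 964.3 TPM), oligodendrocyte precursor markers in 2 of 9 (517 to 605 and 526 to 659 TPM) and muscle and blood markers in 1 of 5 (450.4 to 592 and 511 to 601 TPM). The summed ranges of these lists overlapped between groups. The astrocyte marker Aqp4 (log2 -0.18) and the muscle marker Myh1 (log2 -0.53) were lower at an unadjusted limma p under 0.05 and were not called. None of 13 oligodendrocyte and 6 endothelial markers was called by limma, and 0 of each had an unadjusted p under 0.05; endothelial markers summed to 104 to 149.5 and 108 to 171 TPM. No marker of any list was at 0 in every library. The part of these cell types in the changes of Rtn1, Rtn2, Rtn3 and Rtn4rl1 was not tested.

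The genes whose levels varied most like each member among the libraries, after each genotype's mean was taken out, were found over 10 libraries and 11379 genes. They share each library's depth and composition, so the values are descriptions. For Rtn4 they were Tcaf1 (r = 0.973), Ric3 (0.970) and Ssr3 (0.967), and for Rtn3 they were Dstn (0.981), Hsp90b1 (0.969) and Ube2b (0.965). For Rtn1 they were Rac1 (0.932), Pqbp1 (0.930) and Spryd7 (0.927), and for Rtn2 Larp1 (0.972), Hs2st1 (0.969) and Arhgef12 (0.969). For the receptor gene Rtn4r they were Ret (0.896), Sorl1 (0.884) and Cabyr (0.880), for Rtn4rl1 Cx3cl1 (0.968), Tafa1 (0.941) and Extl3 (0.933), and for Rtn4rl2 Htr7 (0.901), Nr1d1 (0.818) and Ube2l6 (0.797). Among the members themselves Rtn3 and Rtn4 were the closest pair (r = 0.833), and Rtn4 varied with Rtn4r at r = -0.113.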

How the data were processed

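Members and lists were chosen with earlier results of these data known. TPM per gene, raw read counts per exon bin and raw counts of spliced reads per intron were made by the authors and deposited, per the file headers; the log2 change of exon use and the difference in intron share are the authors' deposited values. GRCm38, SAMtools 1.10, STAR 2.7.9a and featureCounts of Subread are listed without roles, per the submitters' processing notes; strand is not given in the sources used here, so antisense overlaps cannot be told apart. Intron counts of Usp7 WT replicate 1 were all even (52.8 to 55.0% even elsewhere) and were halved.

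Gene levels were tested with limma 3.58.1 (R 4.3.3) on log2(TPM + 0.5), trend and robust, labelled sex as covariate, on the 27580 genes that averaged 0.5 TPM or more, so changes of low genes are understated. Exon use (13954 genes, bins with a mean count of at least 10) and intron use (10441 clusters, at least 5) were tested with edgeR 4.0.16 (glmQLFit, diffSpliceDGE, TMM). P-values were adjusted by Benjamini-Hochberg at 0.05 over each table. Regions group bins by GENCODE M21 coding transcripts; shares were compared by exact two-sided permutation over 252 regroupings (scipy 1.17.1), smallest p 0.00794, adjusted over 12 comparisons. Forms of the same gene share a total, so these comparisons are not independent of each other, and the adjusted values depend on which were counted. A log2 ratio of CPM or shares is of group means, and its SE is from log values per library. The libraries are from separate animals. DESeq2 1.42.0, other pseudocounts, filters, scalings, covariates and left-out libraries were alternatives. The text names every member, up to 4 genes per list with the smallest p and the 3 most alike genes per member. Scripts were tested on simulated data, where intron use recovered few of the smaller changes and false calls of exon use were more frequent than the threshold allows. Library numbers in the bin table's header run through all Usp7 cKO and then all Usp7 WT libraries; what they mark is not given in the sources used here, and their order and the genotype cannot be told apart.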

Additional observations from a re-analysis of the deposited data

Results flagged for a closer look

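In 58 groups of 5 libraries checked for a library far from the others, 2 held one, where chance gives about 1 in 20, or 2.9. The 57-base exon of Rtn4 made up 1.487% of Rtn4 bin counts in the library labelled Usp7 cKO replicate 1, against 2.116 to 2.245% in the other 4 Usp7 cKO libraries. The shared coding exons of Rtn3 took 53.97% in Usp7 WT replicate 5, against 56.85 to 57.73% in the other 4 Usp7 WT libraries.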

How the results depend on the processing

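The labels do not name the pairs, but the numbers that end the sample titles form 3 sets with both genotypes and like labelled sex. A replicate block by these numbers was added after seeing the data. Deviations from the genotype means correlated at -0.02 to 0.22 between same-numbered libraries of different genotype (over 0.1 in 6 of 9) and at -0.25 to 0.13 between others, and 9 of 10 libraries correlated best with their own number, a hint from the data, not the design, since no label says what the number marks. Sex by Xist ran partly with these values. Usp7 WT replicate 4 and Usp7 cKO replicate 4 (0.129) shared sex without the number, and Usp7 WT replicate 5 and Usp7 cKO replicate 4 (-0.25) shared neither. Usp7 WT replicate 4 and Usp7 cKO replicate 1 (0.144) shared the number alone, and Usp7 WT replicate 1 and Usp7 cKO replicate 1 (-0.111) sex alone. The part of sex in these correlations was not tested. With the block 1 member was called lower (Rtn3) and 0 higher, and limma adjusted p was 0.0618 for Rtn1, 0.0589 for Rtn2 and 0.0577 for Rtn4rl1. Exchanged within sets (72 regroupings), Rtn1-A exons (0.203), the Rtn1-C first exon (-0.098) and the Rtn1-C and Rtn1-A joins (-0.040 and 0.287) each gave an exact permutation p of 0.0556, where 0.0278 is the smallest possible. The block changed no other call of a member's level, exon use, intron use or isoform share; the whole-table count was 3654.

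Over 21 alternatives each, no log2 level change of a member changed sign. With all libraries 3 members other than Rtn4 were called lower and 1 higher; without both libraries of discordant sex the counts were 0 and 0, with Xist as covariate 0 were called higher, and with single libraries left out 1 to 3 were lower and 0 to 1 higher. Exon use was called for 2 such genes, for 1 with Xist as covariate or at a minimum mean count of 50, and for 1 to 2 with single libraries left out. The log2 level difference of Rtn4 was -0.32 on TPM, -0.45 with edgeR and -0.455 with DESeq2 on summed bins.

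Without both libraries of discordant sex the log2 ratio of share was 0.19 for the Rtn1-A exons, -0.11 for the Rtn1-C first exon, -0.034 and 0.247 for the Rtn1-C and Rtn1-A joins, and -0.571 and 0.032 for the Rtn3 long-exon and first-exon joins, each no longer under 0.05 by exact permutation; with 4 against 4 libraries fewer regroupings exist. With coding bins as denominator the shared exons of Rtn3 passed at 0.057, and the longest bin alone gave -0.30 for the shared exons of Rtn4, against -0.21. With single libraries left out, the log2 ratio ran from -0.127 to -0.075 for the Rtn1-C first exon (no longer under 0.05 in 9 of 10), from 0.026 to 0.042 for the first-exon join of Rtn3 (no longer under 0.05 in 7 of 10) and from -0.034 to -0.018 for the shared exons of Rtn1, which passed without Usp7 cKO replicate 3. The cause of these losses was not tested.
The whole-table count of calls was 3832 by limma on TPM and 2181 without both libraries of discordant sex, against 6429 by edgeR and 6599 by DESeq2 on summed bins. TPM keeps no depth, and short bins over-count per base.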
